A study of Mus musculus with 2 samples.

Results

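The cells described here are 1645 cells of mouse embryoid bodies that carried transcripts of the X-linked homeobox genes Rhox6 and Rhox9. Embryoid bodies are clumps of cells grown from embryonic stem cells to start differentiation. These came from J1, a male embryonic stem cell line, and had been given DMSO, the solvent, for 2 days. The companion library came from J1 embryoid bodies given dTAG13 for the same time, a compound that leads to degradation of proteins fused to the FKBP12(F36V) tag. Which protein is tagged, whether the DMSO cells have the tag too and whether the line is a single clone are not in the labels, and the series title names Tex10. Each group was 1 library of cells dissociated with trypsin, so no difference between cells or libraries has a replicate check and no p-value was computed.

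A barcode was kept when it had at least 500 genes and at most 10% of its unique molecular identifiers (UMIs, counts of distinct tagged transcripts) from mitochondrial genes. The chosen cells, called Rhox-high cells below, had at least 3 UMIs summed over Rhox6 and Rhox9 and fewer than 4 summed over the keratins Krt8 and Krt18. They were 1645 of 17878 kept DMSO cells, or 9.20% (95% exact binomial interval 8.78 to 9.63), of 29466 kept cells in both libraries. They were compared with the 14119 kept DMSO cells that held 0 UMIs of Rhox6 and Rhox9, called Rhox-zero cells. The counts of these 4 genes chose the cells, so the values of the 4 are a description and support nothing. The label lists Rhox6, Rhox9, Nanos3 and Cfc1 as markers and names no cell type, so none is given here.

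Rhox genes (reproductive homeobox, X-linked) form a cluster of transcription factor genes known for expression in the testis, ovary, placenta and germ line. Many of them are held silent in somatic cells by DNA methylation at their promoters, and Rhox6 and Rhox9 are known from placenta and embryonic germ cells. Naive pluripotent cells resemble the preimplantation epiblast, and formative cells, into which they turn on the way to differentiation, resemble the epiblast just after implantation and gain DNA methylation.

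Rhox6 and Rhox9 are close copies, which bears on whether reads of one can be counted for the other. Their coding sequences, taken from GENCODE M21, are 684 bases each and match at 620 positions (90.6%). Over the last 300 transcript bases, where reads from 3′ libraries lie, 240 of 269 aligned bases matched and the longest shared run was 38 bases. Coding bases 625 to 684 of each are shown because they hold 13 differing bases, given in capitals, that can tell the pair apart.
Rhox6: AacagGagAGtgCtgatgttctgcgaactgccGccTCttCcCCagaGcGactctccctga
Rhox9: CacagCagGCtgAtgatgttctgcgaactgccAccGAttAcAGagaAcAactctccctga
The sources used here do not give how reads matching both genes were counted, so the sum of the pair is firmer than either value. Rhox5 matched Rhox6 at 62.7% and Rhox9 at 67.1% of aligned coding bases, so it is a more distant relative.

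Both genes were present in most Rhox-high cells. Together the cells held 6185 Rhox6 and 6157 Rhox9 UMIs, or 486 and 484 CPM (the UMIs of a gene scaled to a common class total), and 1456 of 1645 cells (88.5%) held both. Only Rhox6 was seen in 91 cells and only Rhox9 in 98. A Rhox-high cell held a median of 6 Rhox6 and Rhox9 UMIs and at most 44. The 1645 cells carried 75.9% of the pair's UMIs among all kept DMSO cells.

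Beside the threshold, 603 kept DMSO cells held 2 UMIs of the pair and 347 held 3, with median depths of 6111 and 6076 UMIs per cell. Another 1450 cells held 1. At the keratin limit, among cells with at least 3 Rhox UMIs, 13 cells held 3 keratin UMIs and 6 held 4. In all, 61 cells passed the Rhox limit and were left out by their keratins. No gap was seen at the Rhox limit in counts of the pair, or at the keratin limit in keratin counts. Whether the Rhox-high cells form a separate class was not tested.

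**Figure D1:**
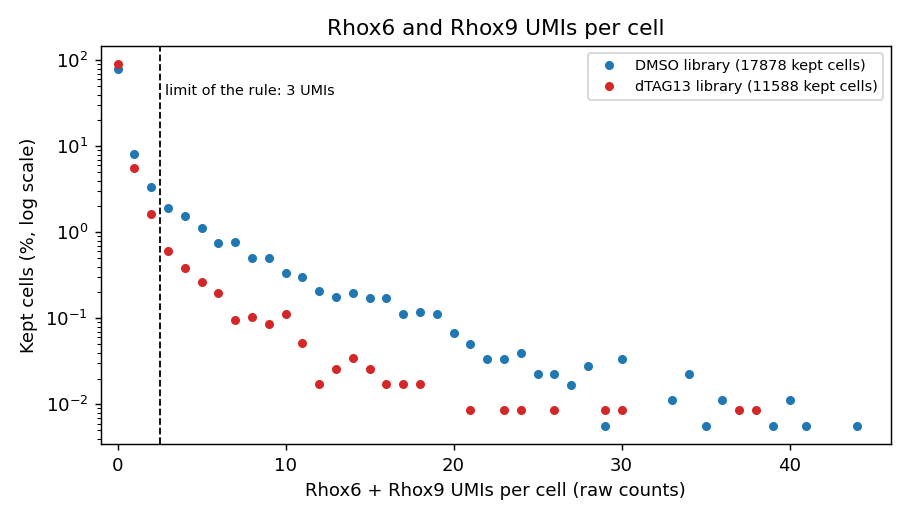
Percent of each library's kept cells (log axis) by summed Rhox6 and Rhox9 UMIs per cell, for the DMSO and dTAG13 libraries; the horizontal axis is limited, and the few cells with more UMIs are not drawn. The dashed line marks the lower limit of 3 UMIs, and the share falls across it without a gap, from 603 DMSO cells at 2 UMIs to 347 at 3.

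The spread of the pair over cells is given as a description of the genes that chose the cells. With every cell thinned at random to 4000 UMIs, the variance divided by the mean was 4.10 for Rhox6 and 3.53 for Rhox9 in the DMSO library. No keratin limit was applied here, so cells left out by their keratins, with up to 115 UMIs of the pair before thinning, are included. Over the 2242 genes within 2-fold of the same mean the median was 1.03, and 0 of them exceeded Rhox6. The pluripotency factor Pou5f1 had 1.16 and Sox2 had 1.18. Among cells with fewer than 4 keratin UMIs, the 926 cells with at least 3 Rhox6 UMIs had 543 CPM of Rhox9, against 15.6 CPM in cells with 0 Rhox6. Both genes belong to the rule and the part of reads shared between the copies was not tested, so nothing is read from this.

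Depth moved with the choice. Rhox-high cells had a median of 6762 UMIs and Rhox-zero cells 5951, and 14.2% against 3.24% of cells had over 2 times the library's median, which can include doublets. The median mitochondrial share was 2.65% against 2.45%, and ribosomal protein genes took 31.3% against 30.6% of UMIs. A cell of median depth with the library's average makeup would hold 0.834 UMIs of the pair. After thinning to 4000 UMIs, 976 of 15908 cells (6.14%, 5.77 to 6.52) met the same limits, and 1970 shallower cells were left out. Ratios below compare summed UMIs as CPM, and the closing section gives the counts at matched depth. Intervals are exact, at 95%, and cover counting error only.

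Of 8533 genes that reached 5 CPM in either class, other than the 4 that chose the cells, 610 (7.15%) were at least 1.5-fold higher in Rhox-high cells and 568 (6.66%) at least 1.5-fold lower. The median log2 ratio over all 8533 was 0.02. These shares are the background for the lists below: "higher" and "lower" always mean past 1.5-fold, and a list is called nothing particular from its counts.

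The genes with the highest ratios included a trophoblast regulator, calcium-binding proteins and cytoskeletal proteins. Pdlim4, an actin-associated PDZ and LIM domain protein, stood at 75.2 CPM (70.5 to 80.1) in Rhox-high cells and 6.76 CPM (6.23 to 7.32) in Rhox-zero cells, a ratio of 11.1 (10.0 to 12.3). Fthl17a, an X-linked relative of the ferritin heavy chain, stood at 55.1 and 5.36 CPM, a ratio of 10.3. Gata2, a zinc finger factor of trophoblast and blood, stood at 30.3 and 4.299 CPM, a ratio of 7.06 (6.11 to 8.15). These genes were read in a minority of cells even so. At 4000 UMIs per cell, 24.3% of 1495 Rhox-high cells held a Pdlim4 UMI, against 2.43% of 12524 Rhox-zero cells (35.2% and 3.65% before thinning). For Gata2 the shares were 10.4% and 1.61% (18.5% and 2.44% before thinning). Thinning left out 150 Rhox-high and 1595 Rhox-zero cells.

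The rest of the 15 highest ratios ran from 4.40 to 21.4. BC048679 was at the top with 23.6 and 1.10 CPM (ratio 21.4, and 13.7 against all non-members). Calcium-binding S100 proteins were among them, S100a1 at 22.5 and 2.88 CPM (ratio 7.80) and S100a13 at 125 and 27.9 CPM (ratio 4.46). The others were Eps8l2, an actin regulator of the Eps8 family (7.22), Dap (6.69), the BH3-only death factor Bik (5.28), Krtdap, known from keratinocyte differentiation (5.16), the AP-1 subunit Jun (4.99), the X-linked kinase Nrk, known from placenta (4.93), the lipid transfer protein Stard10 (4.44), the endocytic adaptor Hip1 (4.42) and AU015836 (4.40). S100a1 and S100a13 lie head to head, so they share the stretch between their starts. It is printed because both genes of the pair were high, with CG dinucleotides in capitals (RefSeq, GRCm38.p6, chr3:90514331-90514434, plus strand, 104 bases, 3 CG).
S100a1 to S100a13: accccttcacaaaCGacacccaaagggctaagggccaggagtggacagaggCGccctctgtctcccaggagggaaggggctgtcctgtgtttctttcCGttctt
Of the 15 genes, 13 had a promoter in the RefSeq table. These held a median of 14 CG in the 250 bases before the start, against 6 over all 27025 promoters. All promoters include those of genes under 5 CPM here, and S100a1 and S100a13 share bases, so nothing is read from these CG counts. The GATA motif AGATAA, searched on both strands, was in 1 of the 13 and in 10.3% of all promoters. The AP-2 motif GCCNNNGGC was in 1 of the 13 and in 13.6% of all.

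The genes with the lowest ratios included the intermediate filament gene Vim and the formative gene Tcf15. Vim stood at 13.7 CPM (11.7 to 15.9) in Rhox-high and 83.4 CPM (81.5 to 85.3) in Rhox-zero cells, a ratio of 0.164 (0.140 to 0.191). Stmn2, a microtubule-destabilising protein, stood at 96.6 and 437 CPM, a ratio of 0.221. Eras, an embryonic stem cell Ras protein encoded on the X chromosome, stood at 11.9 and 58.3 CPM, a ratio of 0.205 (0.136 where the limits were applied to thinned cells). Tcf15, a bHLH factor of cells leaving naive pluripotency, stood at 30.6 and 111 CPM, a ratio of 0.275. In thinned cells a Stmn2 UMI was seen in 24.7% of Rhox-high and 71.9% of Rhox-zero cells (36.4% and 78.9% before thinning). The share for Vim was 4.41% and 23.6% (8.21% and 31.7% before thinning). The rest of the 15 lowest were Ttn (0.183, and 0.0977 where the limits were applied to thinned cells), Pla2g1b (0.191), Spink1 (0.224, and 0.104 in the same way), Pcsk1n (0.259), Cbr3 (0.263), Tcea3 (0.269) and Trh (0.281), the glutathione peroxidase Gpx2 (0.263), the Wnt antagonist Sfrp1 (0.273), and the long noncoding RNAs Rian (0.224) and Halr1 (0.258).

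High and low genes were unevenly mixed in single cells. At 4000 UMIs, the 15 highest genes summed to a median of 2 UMIs in a Rhox-high cell and 0 in a Rhox-zero cell, and the 15 lowest to 1 and 5. More UMIs of the high than of the low genes were held by 59.3% of Rhox-high cells (56.7 to 61.8), 21.9% of cells with 1 or 2 Rhox UMIs and 4.46% of Rhox-zero cells (4.10 to 4.83). The share was higher still, 47 of 56 (83.9%, 71.7 to 92.4), in cells past the Rhox limit that were left out by their keratins. The genes were picked on Rhox-high and Rhox-zero cells, so the contrast between these is fixed in part by the choice. In the other Rhox-high cells the high set did not exceed the low set at this depth.

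The level of most of the 15 highest and 15 lowest genes moved stepwise with the number of Rhox6 and Rhox9 UMIs, in cells under the keratin limit. Pdlim4 stood at 6.77 CPM in cells with 0 UMIs of the pair, 20.7 with 1, 41.4 with 2, 48.1 with 3 to 4, 70.7 with 5 to 9 and 116 with 10 or more. Dppa3 stood at 40.4, 69.5, 99.9, 98.0, 117 and 135 CPM over the same bins. Stmn2 stood at 437, 257, 138, 127, 91.0 and 66.1 CPM. As a fold, the step from 0 to 2 UMIs was wider for these genes than the step from 3 to 4 up to 10 or more, and cells with 2 UMIs were close to those with 3 to 4. Of the 15 highest genes 13 had every bin above the one before, and of the 15 lowest 11 had every bin below it. Both sets were picked by the ratio of Rhox-high over Rhox-zero cells, so their direction between those cells was fixed by the choice. Cells with 1 or 2 UMIs of the pair had no part in that ratio. For 13 of 15 in each set the intervals of the bins at 2 and at 3 to 4 UMIs overlapped. Median depth was 5950 UMIs in the lowest bin, 6364 at 3 to 4 and 7915.5 in the highest, so the highest bin was also the deepest, and the part of depth was not tested there.

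**Figure D2:**
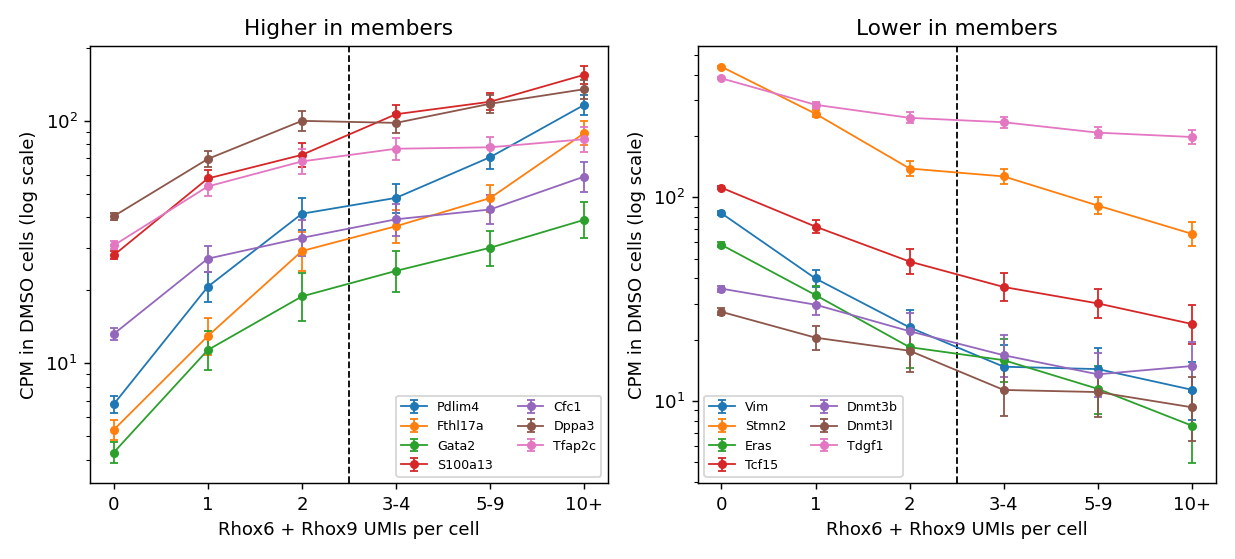
CPM (log axis) of named genes in DMSO cells under the keratin limit, by bins of summed Rhox6 and Rhox9 UMIs per cell, with 95% exact Poisson intervals as bars. Pdlim4 runs from 6.77 CPM in the bin of 0 UMIs to 116 in the bin of 10 or more, and Stmn2 from 437 to 66.1.

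Within the Rhox cluster, the other members were few. Of the 31 Rhox genes listed, 2 besides the pair passed 5 CPM. Rhox5, the founding member, stood at 77.4 and 41.6 CPM (ratio 1.86), and Rhox13 at 6.92 and 5.48 CPM (ratio 1.26). The 7 copies of Rhox4, near-identical to each other and summed for that reason, gave 38 UMIs in 35 Rhox-high cells and 17 UMIs in all Rhox-zero cells, or 2.99 and 0.189 CPM. Rhox6 lies between Rhox5 and Rhox7a, and Rhox8 lies next to Rhox9. Rhox7a had 0 UMIs in Rhox-high and 1 in Rhox-zero cells, and Rhox8 had 3 in each class. The Rhox3 copies had 0 UMIs, against a floor of 3 UMIs, or 0.236 CPM, for this class. Outside the pair, the UMIs of the cluster in Rhox-high cells were thus mostly those of Rhox5.

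Germ cell genes were mixed. Of the 14 genes of this list with at least 5 CPM, 6 were higher and 1 lower, with a median log2 ratio of 0.37. Elf3, an epithelial factor that the list includes, is counted among the 6. Dppa3, a maternal factor of the early germ line that guards DNA methylation marks, stood at 115 and 40.3 CPM (ratio 2.86). Tfap2c, an AP-2 factor needed by germ cells and trophoblast, stood at 79.0 and 30.6 CPM (2.58), the epithelial factor Elf3 at 48.5 and 24.1 (2.01), and the membrane protein Ifitm1 at 1198 and 639 (1.87). The marker Nanos3, an RNA-binding protein that germ cells need to survive, stood at 36.7 CPM (33.5 to 40.2) against 20.05 CPM, a ratio of 1.83 (1.65 to 2.03). Its share at 4000 UMIs was 13.2% of Rhox-high and 7.35% of Rhox-zero cells (21.9% and 10.9% before thinning). Prdm1, a repressor that sets germ cell fate, was not past 1.5-fold at 18.9 and 16.5 CPM. Dnd1 was lower, at 3.14 and 6.70 CPM, and Lin28a was at a ratio of 0.674, not past 1.5-fold. Of the 20 genes of the list, 3 were at 0 UMIs in Rhox-high cells. The Rhox-high cells thus carried more of several germ line genes, but Nanos3 UMIs were also found in Rhox-zero cells and Prdm1 differed little.

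Genes of de novo DNA methylation were lower. Of 13 genes of methylation and demethylation measured, 4 were lower and 0 higher, with a median log2 ratio of -0.34. The de novo methyltransferase Dnmt3b stood at 15.02 and 35.6 CPM (ratio 0.422, 0.363 to 0.488), its cofactor Dnmt3l at 10.7 and 27.4 (0.390), Dnmt3a at 14.0 and 21.1 (0.662, and 0.678, short of 1.5-fold, against all non-members), and Zfp57, which keeps methylation at imprinted regions, at 35.7 and 84.0 (0.425). The maintenance enzyme Dnmt1 stood at 205 and 177 CPM (1.16), its partner Uhrf1 was at a ratio of 0.683, and the demethylating enzymes Tet1 and Tet2 at 0.861 and 1.07. Of 9 germline genes known to be silenced by methylation, 0 were higher and 3 lower: Hormad1 (0.453), Rpl10l (0.512) and Sycp3 (0.639, and 0.728 where the limits were applied to thinned cells, short of 1.5-fold). Methylation itself was not measured.

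Formative genes were lower while the core factors Pou5f1, Sox2 and Nanog differed little. Of 9 measured formative genes, 7 were lower and 0 higher, with a median log2 ratio of -1.19, Tcf15 and Dnmt3b among them, and Otx2 at 2.99 and 6.83 CPM. Of 17 naive genes, 5 were lower and 1 higher (Dppa3), and the median was -0.41. Nr0b1 was at 0.332 (0.221 where the limits were applied to thinned cells), Tcl1 at 0.490, Klf4 at 22.9 and 40.9 CPM (0.559) and Klf5 at 0.661. Pou5f1 stood at 543 and 632 CPM (0.859), Sox2 at 307 and 287 (1.07) and Nanog at 88.0 and 85.8 (1.03). The list of pluripotency genes shared by both states, Pou5f1 and Sox2 among them, had 11 measured genes. Of these 0 were higher and 2 lower, Tdgf1 (0.558) and L1td1 (0.651), with a median log2 ratio of -0.27. Both naive and formative genes were thus found among the lower ones, and Pou5f1 was read in 93.8% of Rhox-high cells.

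**Figure D3:**
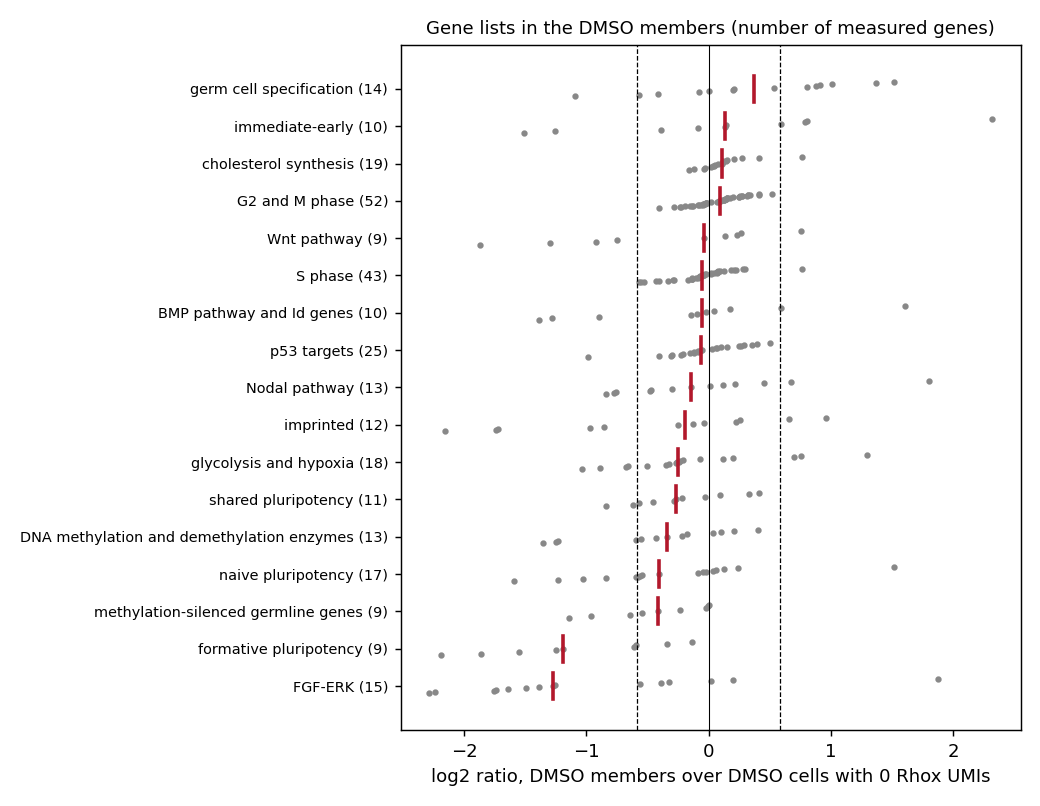
Log2 ratio of CPM, Rhox-high (members in the plot) over Rhox-zero cells of the DMSO library, for each measured gene (points) of the lists with at least 9 measured genes, with the list's median as a red bar and 1.5-fold as dashed lines. The formative list has a median of -1.19 and the FGF-ERK list of -1.27, and the median over all 8533 genes is 0.02.

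Receptors and ligands of signalling pathways were split. Cfc1 (Cryptic) and Tdgf1 (Cripto) are both co-receptors for Nodal, and they went opposite ways. Cfc1 stood at 45.99 and 13.2 CPM (ratio 3.49, 3.16 to 3.86) and Tdgf1 at 214 and 383 CPM (0.558). The ligand Nodal stood at 28.1 and 39.0 CPM (0.722), its feedback inhibitors Lefty1 at a ratio of 0.586 and Lefty2 at 0.717, and the convertase Pcsk6, which cuts the Nodal precursor, at 1.59 (1.37 in cells of 5000 to 10000 UMIs, short of 1.5-fold). In all, 2 of 13 Nodal pathway genes were higher and 3 lower. Cfc1 UMIs were seen in 15.8% of Rhox-high and 5.14% of Rhox-zero cells at 4000 UMIs (26.7% and 7.60% before thinning).

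The FGF-ERK list, the pathway that drives cells out of naive pluripotency, had 9 of 15 genes lower and 1 higher and a median of -1.27. The lower ones were the ligands Fgf17 (4.09 and 19.3 CPM, ratio 0.212, and 0.0976 in cells of 5000 to 10000 UMIs) and Fgf15, the feedback inhibitors Spry2, Spry4 and Spred1, the target factors Etv4 and Egr1, and the Ras proteins Eras and Mras. The receptor Fgfr2 was the higher one, at 7.39 and 2.02 CPM (3.67, 2.83 to 4.73). Of 10 BMP genes, 2 were higher and 3 lower. The Id genes, direct BMP targets, were lower for Id1 (137 and 334 CPM, ratio 0.410) and Id3 (0.538), while the homeobox target Msx2 was at 9.67 and 3.18 CPM (3.04). In the Wnt list 1 of 9 was higher and 4 lower, among them Sfrp1 and the cyclin gene Ccnd1 (33.0 and 81.1 CPM, 0.407).

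Imprinted genes were mixed. The maternally expressed noncoding RNAs Meg3 (25.3 and 84.7 CPM, ratio 0.299, and 0.199 where the limits were applied to thinned cells), Rian (0.224) and Mirg (0.304), which come from the same imprinted cluster, were all lower. Igf2r, a receptor that clears IGF2, was higher (1.95). H19 and Igf2 were under 1 CPM. H19 stood at 0.943 and 0.0445 CPM (12 and 4 UMIs, ratio 21.2, 6.42 to 90.1) and Igf2 at 0.865 and 0.0223 CPM (11 and 2 UMIs, ratio 38.8, 8.47 to 360.5). Of the 12 measured imprinted genes, 2 were higher and 5 lower.

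Markers of other cell types were checked over whole lists. The 18 trophoblast markers include 4 that chose the cells. The other 14 summed to 133 CPM in Rhox-high and 46.4 in Rhox-zero cells, with 0 of them at 0 UMIs, and only Gata2 and Tfap2c passed 5 CPM. The defining regulators were below 5 CPM in both classes, and most had a higher level in Rhox-high cells. Cdx2 stood at 0.865 and 0.0891 CPM (11 and 8 UMIs, ratio 9.71, 3.56 to 27.8), Elf5 at 0.393 and 0.0780 (5 and 7 UMIs, ratio 5.04, 1.26 to 18.5) and Eomes at 2.91 and 2.36 (ratio 1.23, 0.844 to 1.75). Hand1 stood at 3.38 and 0.379 CPM (ratio 8.93, 5.56 to 14.4), Krt7 at 3.62 and 0.902 (4.01) and Gata3 at 2.04 and 0.768 (2.66). Most of these low-level markers were thus higher in Rhox-high than in Rhox-zero cells, but they were not followed over the bins of Rhox UMIs. Their part in the other differences was not tested. The 15 extraembryonic endoderm markers summed to 216 and 187 CPM, most of it Sparc, with Sox17 and Sox7 at 0 UMIs. Of 3 measured, 1 was higher, the basement membrane collagen Col4a1 at 8.88 and 3.59 CPM (2.48). The regulator Gata6 stood at 2.04 and 0.200 CPM (26 and 18 UMIs, ratio 10.2, 5.38 to 19.7). Of 10 fibroblast markers 5 were at 0 UMIs (42.8 and 116 CPM summed, of which Vim gave 13.7 and 83.4), of 17 primitive streak and mesoderm markers 4 were, T among them (18.003 and 20.3 CPM). Of 8 neural markers 4 were at 0 UMIs (42.9 and 69.6 CPM), and of 15 markers of the state that resembles the 2-cell embryo 7 were (7.63 and 9.87 CPM), with 1 measured at 5 CPM, Zfp750 (7.23 and 4.22 CPM, ratio 1.71). Cells with at least 3 Zscan4 UMIs, a sign of the latter, were 1 of 1645 Rhox-high and 30 of 14119 Rhox-zero cells.

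The 61 DMSO cells that passed the Rhox limit but had 4 or more keratin UMIs differed from the Rhox-high cells in level. Their Gata2 stood at 86.3 CPM, Fthl17a at 156 and Rhox6 at 1294, all above the Rhox-high values, and Pou5f1 at 317 was below. Cfc1 (11.3 CPM, from 6 UMIs) and Nanos3 (9.38 CPM, from 5 UMIs) were below the Rhox-high values of 45.99 and 36.7. Pdlim4 stood at 67.5 CPM, S100a13 at 206, Vim at 20.6 (from 11 UMIs) and Stmn2 at 69.4 in the 61 cells. The Rhox-zero values of these genes were 6.76, 27.9, 83.4 and 437 CPM. High and low genes of the contrast, Gata2 and Fthl17a among them, were thus shared by both sides of the keratin limit. Cfc1 and Nanos3 were higher on the low keratin side in these few cells.

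Immediate-early genes, which trypsin dissociation can raise, were split. Of 10 measured, 4 were higher and 2 lower, with summed levels of 589 and 470 CPM. Among the higher ones, Jun stood at 47.0 and 9.42 CPM, Jund at 278 and 161 and Klf6 at 41.3 and 23.6. Egr1 was lower, at 6.45 and 15.4 CPM, while Ier2 stood at 140 and 183 and Junb at 24.5 and 22.3. The part of dissociation in these values was not tested.

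The same limits applied to the dTAG13 library chose 222 of 11588 kept cells, or 1.92% (1.67 to 2.18). Across the library Rhox6 stood at 17.2 CPM, against 69.5 in the DMSO library. After thinning to 4000 UMIs, 108 of 10720 dTAG13 cells (1.01%, 0.827 to 1.22) met the limits, against 6.14% in the DMSO library. Fewer such cells and less Rhox RNA per cell cannot be told apart by a count threshold, and with 1 library per group the treatment and the library cannot be told apart. The libraries shared 64 barcode sequences, of which 6 belonged to Rhox-high cells.

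The dTAG13 cells chosen by the limits offer the same contrast in cells that played no part in choosing the Rhox-high cells. They had a median of 8941 UMIs, against 6983 in the 10487 dTAG13 cells without Rhox UMIs. Of 8999 genes, 884 (9.82%) were higher and 699 (7.77%) lower, and 5 CPM in these cells is only 11.3 UMIs. Among 8289 genes measured in both contrasts, 571 were higher in the DMSO contrast and 707 in the dTAG13 contrast, and 361 were higher in both, which is 63.2% of the first and 51.1% of the second. For lower genes the overlap was 275, or 58.8% of 468 and 51.2% of 537. Opposite calls were made for 2 genes in each direction.

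All 15 highest and all 15 lowest genes of the DMSO contrast were past 1.5-fold the same way in the dTAG13 library. Pdlim4 stood at 55.4 CPM in the chosen dTAG13 cells and 2.99 in those without Rhox UMIs (ratio 18.5, 14.8 to 23.0), Gata2 at 50.0 and 7.33 (6.83, 5.54 to 8.36) and Vim at 10.6 and 79.7 (0.133). Sizes differed for some. Jun was 1.82-fold higher (130 and 71.2 CPM) against 4.99-fold in the DMSO contrast, and Sfrp1 had a ratio of 0.618 (0.336 to 1.04). Of the 4 label markers, Cfc1 stood at 30.1 and 3.05 CPM (9.86, 7.43 to 12.9), and Nanos3, at 20.8 and 14.6 CPM (1.42, 1.04 to 1.90), was not past 1.5-fold. Tfap2c missed it too (135 and 91.0 CPM, ratio 1.48), while Dppa3 had a ratio of 2.49.

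**Figure D4:**
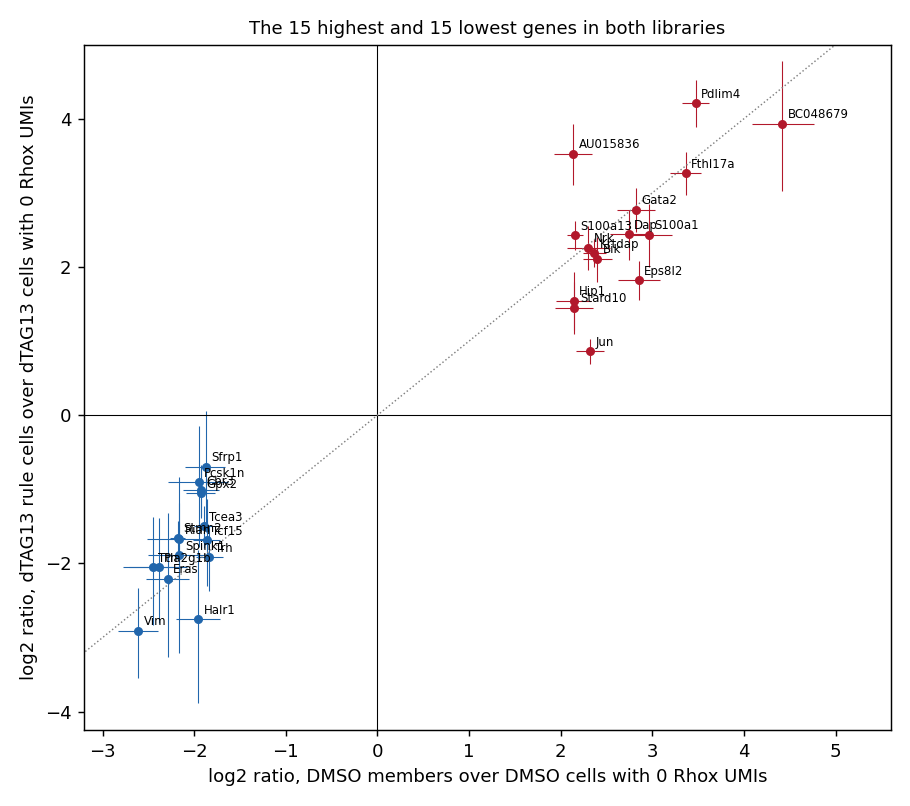
Log2 ratio of CPM, cells chosen by the Rhox and keratin limits over cells with 0 Rhox6 and Rhox9 UMIs, in the DMSO library (horizontal axis) and the dTAG13 library (vertical axis); bars are 95% counting intervals, and the dotted line marks equal ratios. Pdlim4, Gata2 and Vim lie on the same side of 0 in both libraries.

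The gene groups kept their direction for formative genes (7 of 10 lower, median -0.997) and FGF-ERK genes (8 of 13 lower, median -0.99). In the dTAG13 library 3 of 13 methylation genes were lower, Dnmt3b (0.350), Dnmt3l (0.375) and Zfp57 (0.405), and Tet2 was higher (1.57). Dnmt3a (0.682), Rpl10l (0.838) and Sycp3 (0.764), lower in the DMSO contrast, were not past 1.5-fold, and Nanog was higher (1.55). Genes of the germ cell list were higher for 7 of 15, Elf3 among them, and lower for 1. Naive genes were higher for 3 and lower for 4 of 17. Markers of some other cell types were also higher in the chosen dTAG13 cells, and those of others were not. Of 2 fibroblast markers 0 were higher and 1 lower (71.7 and 167 CPM summed over the list). Of 3 neural markers 0 were higher and 1 lower (72.2 and 106 CPM). The list for the state that resembles the 2-cell embryo summed to 18.6 and 27.4 CPM. Of 7 trophoblast markers, 4 were higher and 1 lower (median 0.88), with Hand1 at 17.3 and 3.03 CPM and Ascl2 at 12.4 and 5.21. Of 5 extraembryonic endoderm markers, 3 were higher and 0 lower (median 1.496), with Col4a1 at 14.2 and 5.02 CPM. The whole endoderm list nevertheless summed to 259 and 274 CPM. Of 2 primitive streak and mesoderm markers 1 was higher, Hand1, which is also on the trophoblast list. Their part in the other differences was not tested. Mras, by contrast, was 0.354 in the DMSO contrast and 1.48 in the dTAG13 contrast, and the difference was not tested.

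Between libraries, the ratio of chosen dTAG13 cells over Rhox-high cells was 0.593 for Rhox6 and 0.597 for Rhox9. The limit of 3 UMIs admits lower CPM in the deeper dTAG13 cells, so these values are shaped by the choice and nothing is read from them. Gata2 was 1.65-fold higher in the chosen dTAG13 cells and 1.70-fold higher in dTAG13 cells without Rhox UMIs. Cfc1 was at 0.655 in chosen cells and at 0.232 in cells without Rhox UMIs, and the difference between these was not tested. Targets of p53 were higher in the dTAG13 library in both kinds of cell, with a median log2 ratio of 1.33 over 26 genes in chosen cells and 1.45 over 27 genes in cells without Rhox UMIs. Tex10 itself stood at 82.5 CPM in Rhox-high and 81.7 in Rhox-zero DMSO cells (ratio 1.01, 0.946 to 1.08) and at 61.1 and 64.8 CPM in the dTAG13 cells (0.942). A degradation tag acts on protein, so Tex10 RNA does not check the treatment.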

How the data were processed

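Embryoid bodies were profiled with the 10x Chromium 3′ kit per the labels' protocols. Per the file headers, the authors made the deposited UMI counts, whole numbers per gene and barcode, in Cell Ranger 8.0.1. Seurat 5.0.1, R 4.3.2 and mm10 are further named in the submitters' processing notes. The barcode filter, the treatment of doublets and the annotation are not given in the sources used here. Of 33696 gene identifiers, 1735 were not in GENCODE M21, so the annotation is not settled and no gene coordinates go with the counts. The 26 symbols with 2 identifiers were summed.

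The kept DMSO cells held 117189816 UMIs (median 6014 per cell) and the kept dTAG13 cells 91808969 (median 7072.5). No cell was removed as a doublet and no caller was run. UMIs were summed over the cells of a class and divided by the class total to give CPM. CPM had exact Poisson intervals, ratios exact conditional binomial intervals and shares Clopper-Pearson intervals. All are at 95% and cover counting error only. With 1 library per group no test was run. Thinning drew 4000 UMIs per cell without replacement. Python 3.11.15, numpy 2.4.6, scipy 1.17.1 and pandas 2.3.3 were used, and the code was tested on simulated data.

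Genes were named by rule: the 15 highest and 15 lowest ratios among genes that reached 20 CPM in either class and were read in 5% or more of the cells of the higher class, up to 4 genes with the largest change per list among those with at least 10 CPM, and a fixed set with the label's markers, pluripotency factors, DNA methylation enzymes and neighbours of the pair. Predicted, ribosomal protein and mitochondrial genes and the 4 genes that chose the cells were left out. Dnd1, Prdm1, Rhox13, the Rhox4 copies, Klf4, Klf5, Otx2, Lefty2, Nodal, Msx2, Mirg, Ier2, Junb, the FGF genes under 10 CPM, Pfkl, Pdk1, Bnip3, Col4a1, Zfp750, H19, Igf2 and all cell type markers under 10 CPM or given by UMI count are outside this rule and were chosen after their values were seen. The cells, the 24 lists and the limits were chosen with earlier results of these data known. Some genes named by the rule are not reported here. Alternatives in filter, scaling, depth, weighting, threshold and comparison cells were tried.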

Additional observations from a re-analysis of the deposited data

Results flagged for a closer look

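Genes past 1.5-fold in opposite directions in the DMSO and dTAG13 contrasts were singled out, and the difference was not tested for any of them. Cd59a, an inhibitor of the complement attack complex, had a ratio of 1.79 (1.46 to 2.19) in the DMSO contrast and 0.634 (0.336 to 1.09) in the dTAG13 contrast. Ipp had ratios of 1.501 (1.17 to 1.90) and 0.652 (0.280 to 1.30). Dtx1, a ubiquitin ligase of the Notch pathway, had 0.591 (0.420 to 0.810) and 1.51 (0.837 to 2.53). Gm57314 had 0.484 (0.356 to 0.644) and 1.72 (0.9501 to 2.88). Their levels ran from 3.30 CPM for Dtx1 in Rhox-high cells to 9.75 CPM for Cd59a in the same cells, and each dTAG13 interval included 1.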

How the results depend on the processing

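The 610 higher and 568 lower genes became 217 and 184 with a minimum of 20 CPM, and 2621 and 2636 of 18713 with no minimum CPM but at least 3 UMIs. At matched depth they were 685 and 672 (cells of 5000 to 10000 UMIs) and 541 and 564 (Rhox-zero cells reweighted to the depths of the Rhox-high cells). The 884 and 699 genes of the dTAG13 contrast became 300 and 207 at 20 CPM, 2819 and 1788 with no minimum, 1470 and 1104 in the depth window (111 cells) and 1759 and 1339 after thinning (108 cells). The Rhox-high cells were 976 after thinning and 1028 with at least 5 Rhox UMIs. The median of the list for the state that resembles the 2-cell embryo rests on 1 measured gene, and turned from 0.78 to -1.15 with no minimum. Of the 43 named lower genes, 40 to 43 stayed 1.5-fold lower under each of the 12 alternatives, and the 31 named higher genes stayed 1.5-fold higher under each, except that 30 did in the depth window. Genes with at most 3 UMIs in both classes were left out. The genes that fell short of 1.5-fold under 1 or more alternatives included Sycp3, Dnmt3a, L1td1 and Pcsk6. Ratios moved by over 1.5 times for Ttn, Eras, Spink1, Nr0b1, Zic5 and Meg3 after thinning, for Fgf17 at 5 Rhox UMIs, for Spink1 and Fgf17 in the depth window, and for BC048679 against all non-members. No paired analysis was possible because each group is 1 library. The depth of the dTAG13 cells, 2258315 UMIs in all, limits genes under about 5 CPM there.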

Other observations

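Genes of the cell cycle and of cholesterol synthesis differed little as groups between Rhox-high and Rhox-zero DMSO cells, and glycolysis and hypoxia genes were split. Of 43 S phase genes 1 was higher and 0 lower, with a median log2 ratio of -0.05, and of 52 genes of G2 and M phase 0 were past 1.5-fold (median 0.09). Cholesterol synthesis genes had a median of 0.11 with 1 of 19 higher, the decarboxylase gene Mvd (1.69). Of 18 glycolysis and hypoxia genes, 3 were higher and 4 lower, with a median log2 ratio of -0.25. The hexokinase Hk1 (2.46), the glucose transporter Slc2a3 (1.69) and Bnip3 (1.62) were higher. The lactate dehydrogenase Ldha, at 158 and 324 CPM (0.489), the phosphofructokinases Pfkp (0.541) and Pfkl (0.632) and the kinase Pdk1 (0.627) were lower. Hk1, Slc2a3 and Ldha had ratios of 2.42, 2.17 and 0.500 in the dTAG13 contrast. Of 25 p53 targets 0 were higher and 1 lower in the DMSO contrast (median -0.07).

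The X chromosome carried 26 of 601 higher genes with a known position (4.33%), 20 of 534 lower ones (3.75%) and 3.19% of all genes measured in the DMSO contrast.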
